A study of Sus scrofa with 44 samples.

Results

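Both ends of prenatal muscle growth in the pig were compared: longissimus dorsi, the long muscle of the back, at 33 days post coitus (E33) and at 95 days post coitus (E95). Of the 44 samples of the series, 12 belong to these stages, 3 input and 3 m6A immunoprecipitated samples at each. The comparison rests on the 3 input libraries of each stage, 6 in all, for which TPM (a transcript's share of all transcripts of a library, scaled to a fixed total) were deposited, and on 1 deposited list of m6A peaks per stage. Genes entered it when their mean reached 1 TPM across these 6 libraries, which 13528 of 22427 listed genes reached, and 10940 of those carry a symbol. The labels name no treatment or genetic change in either group. Ribosomal RNA was depleted from Trizol-extracted, DNase-treated RNA in both, and they differ in the labels only by age. Breed, sex, litter, and whether a library held 1 fetus or several are not stated, so the p-values measure only the spread between these samples, which may be technical. The series was made to follow m6A through muscle formation before birth, and these are its first and last stages.

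Skeletal muscle forms before birth in overlapping waves: myoblasts divide, leave the cell cycle, fuse into myofibres, and the fibres then assemble sarcomeres, calcium stores and mitochondria. The longissimus grows from trunk somites, whose position along the body is marked by HOX genes, amid connective tissue, nerve and vessel precursors that are all present in a whole-muscle sample. N6-methyladenosine (m6A) is a methyl mark on adenosines of messenger RNA, written mostly within a short GGAC-like context and read by proteins that act on splicing, translation and decay. In MeRIP-seq, RNA fragments are pulled down with an m6A antibody, and a peak is a stretch of transcript with more reads in the pull-down than in the input.

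Stretches of 30 bases from inside peaks show the kind of sequence the antibody recovered in genes with a peak in the E33 list only, in the E95 list only, or in both. They come from members of the gene lists described further on, with fold enrichments among the highest of their class, whose peak holds GGAC in 1 exon block. They were read from the RefSeq genome Sscrofa11.1 in the sense of the transcript, 5′ to 3′, and the capitals mark 1 GGAC per stretch, the core letters of the m6A context. SOX9 and BMP4, a cartilage regulator and a bone morphogenetic protein, and TET3, which oxidises methylated cytosine in DNA, had a peak at E33 only.

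SOX9: cagaatttcctttGGACctttttttttttt
BMP4: cttccttatagctGGACttttatctttaag
TET3: caatcacctatggGGACagtactcaggagg

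The SOX9 stretch (chr12:8644148-8644177, minus strand) and the BMP4 stretch (chr1:183416146-183416175, minus strand) lie within 200 bases of the stop codon, in peaks with deposited fold enrichments of 9.31 and 8.72. The TET3 stretch (chr3:68926062-68926091, minus strand) lies in coding sequence, in a peak of 7.59. BIN1, which shapes the T-tubule membranes of muscle, FOXD3, a neural crest factor, and ZBTB16, a zinc finger regulator induced by glucocorticoids, had a peak at E95 only.

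BIN1: ccgcagcggcgccGGACtcagggcggccgt
FOXD3: actactggaccctGGACccgcagtctgagg
ZBTB16: atgacgtccagaaGGACtgtgcaaaaacca

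BIN1 carries its stretch in the 5′ UTR (chr15:25328969-25328998, plus strand, peak fold 15.3), FOXD3 in coding sequence (chr6:149154812-149154841, minus strand, 10.6) and ZBTB16 near the stop codon (chr9:41834025-41834054, plus strand, 9.62). KERA, a corneal and tendon proteoglycan, TNC, the matrix glycoprotein tenascin-C, and ERBB2, a receptor tyrosine kinase, had peaks at both stages.

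KERA: caaatgatccagaGGACtggactatgcatg
TNC: gcttcgagggtgaGGACtgcggtgagctcc
ERBB2: agcacctttgaagGGACcccgactgcagag

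KERA (chr5:91796409-91796438, plus strand, peak fold 29.4 in the E33 list) and TNC (chr1:255596760-255596789, minus strand, 21.4 in the E95 list) carry theirs in coding sequence. ERBB2 (chr12:22592306-22592335, minus strand, 17.8 in the E95 list) carries it near the stop codon. Their transcript levels behaved differently from one another: SOX9, BMP4, TET3 and TNC fell between the stages (log2 changes -1.96, -1.85, -0.50 and -4.05), BIN1, FOXD3, ZBTB16 and KERA rose (2.13, 1.82, 1.97 and 2.24), and ERBB2 was not called (0.09, limma adjusted p 0.543).

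A single gene without a symbol, ENSSSCG00000032395, took 37.4% to 66.9% of the TPM of a library, and it was singled out after its values were seen. Every library sums to 1000000 TPM, so sequencing depth is unknown, and a transcript that takes more of the sum lowers all others. The 6 libraries were therefore divided by median-ratio factors, which ran from 0.545 to 1.91, and "scaled TPM" is TPM after that division. With it the median log2 change of all genes was -0.01, against -1.04 on TPM as deposited, so every rise or fall here is relative to the median gene, and changes as deposited are given beside it. Spearman correlations across genes were 0.903 to 0.920 between libraries of a stage and 0.737 to 0.753 between stages. At an adjusted p under 0.05 (limma on log2(scaled TPM + 1), two-sided, Benjamini-Hochberg over all genes tested), 5779 genes were called, 42.7% of those tested. Of these, 2843 (21.0%) were higher and 2936 (21.7%) lower at E95. On TPM as deposited the calls were 530 higher (3.92%) and 8711 lower (64.4%). Counts as deposited given below for lists are to be read against these shares. Of the genes tested, 2215 had a mean below 1 deposited TPM at 1 stage and entered through the other, where they had to be higher, so single genes of this kind are given by their values and without a p. Among the 11313 genes with at least 1 TPM at each stage, 2617 were higher (23.1%) and 2030 lower (17.9%). The 3 libraries of each stage did not overlap for 3717 genes higher (27.5%) and 3838 lower (28.4%). Some values are tiny or 0 at 1 stage: 115 genes tested are listed at 0 in all 3 E33 libraries and 310 in all 3 E95 libraries. In whole muscle, fewer cells of a type and less RNA per cell cannot be told apart. Whether reads shared by close paralogs (ENO1 and ENO3, the myosins, ribosomal proteins) were split or discarded is not given in the sources used here, so single members of such families are uncertain.

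**Figure D1:**
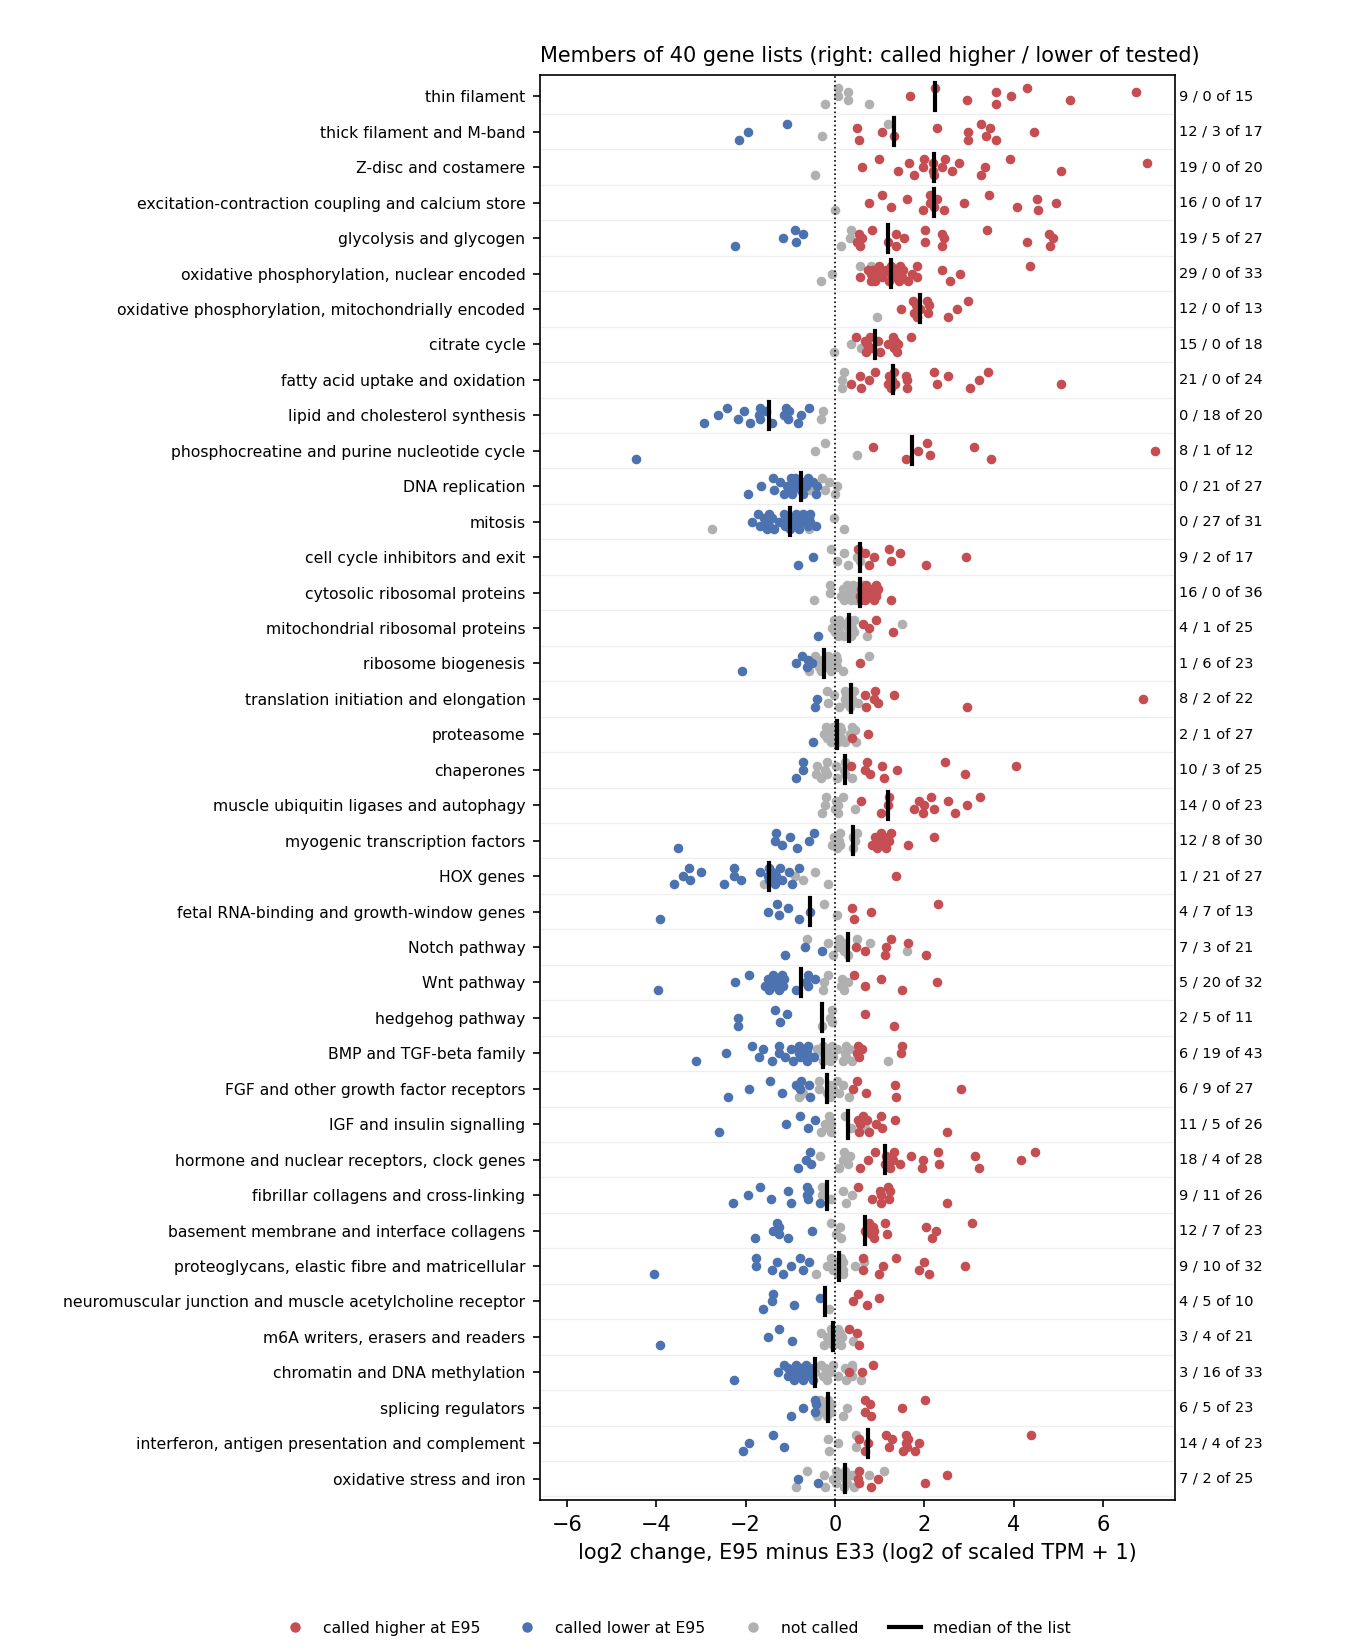
Log2 change from E33 to E95 of the tested members of 40 gene lists, 1 point per gene, red where called higher at E95, blue where called lower and grey where not called, with a black bar at the median of each list and the counts at the right. Contractile and energy lists lie to the right of 0 (Z-disc 19 higher of 20), and lipid synthesis, replication, mitosis and HOX lists to the left (HOX 21 lower of 27).

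Most genes of the contractile apparatus rose. Of 15 tested thin filament genes 9 rose and the other 6 were not called (median log2 change 2.24, 0.97 as deposited), of 17 thick filament and M-band genes 12 rose and 3 fell (median log2 change 1.32, 0.10 as deposited), and of 20 Z-disc and costamere genes 19 rose and the other 1 was not called (median log2 change 2.21, 1.12 as deposited). On TPM as deposited, 8, 8 and 13 of them rose and 5, 4 and 1 fell, in the same order. MYOZ1 (ENSSSCG00000010304, chromosome 14, 76445109 to 76453014), which anchors calcineurin at the Z-disc of fast fibres, stood at 1.35, 1.66 and 2.84 scaled TPM at E33 and 344, 469 and 301 at E95. It was low in every E33 library and high in every E95 library (log2 change 6.99, SE 0.25, limma adjusted p 2.81e-05, 5.89 on TPM as deposited). TCAP, the telethonin cap of titin at the Z-disc (chromosome 12, 22651666 to 22652904), stood at 48.9, 28.2 and 51.8 scaled TPM at E33 and 1392, 1661 and 1213 at E95 (log2 change 5.05, SE 0.27, limma adjusted p 7.82e-05, 3.79 on TPM as deposited). Desmin (DES), the intermediate filament that ties Z-discs together, was already abundant at E33, with 155, 145 and 174 scaled TPM at E33 and 1561, 2118 and 1279 at E95 (log2 change 3.35, SE 0.21, limma adjusted p 0.000138, 2.08 on TPM as deposited).

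Skeletal alpha-actin, ACTA1 (chromosome 14, 60412651 to 60415687), stood at 405, 369 and 472 scaled TPM at E33 and 4897, 9176 and 5813 at E95 (log2 change 3.95, SE 0.27, limma adjusted p 0.000164, 2.68 on TPM as deposited), and TNNI2, the fast troponin I, at 159, 184 and 208 scaled TPM at E33 and 6107, 9461 and 6154 at E95 (log2 change 5.27, SE 0.23, limma adjusted p 4.43e-05, 4.0 on TPM as deposited). Both stages held these fibre transcripts, and no E33 library came near an E95 library. MYBPC2, the fast myosin-binding protein C, stood at 0.483, 1.69 and 1.19 scaled TPM at E33 and 36.3, 40.5 and 58.8 at E95 (log2 change 4.46, SE 0.27, limma adjusted p 0.000122, 3.45 on TPM as deposited). Its slow counterpart MYBPC1 (log2 change 3.37), the M-band protein MYOM2 (3.60) and the essential light chain MYL1 (3.46) rose too. MYL4, the atrial and embryonic light chain, went the other way, with 148, 109.9 and 155 scaled TPM at E33 and 49.3, 39.8 and 13.6 at E95 and no overlap between the stages (log2 change -2.14, SE 0.47, limma adjusted p 0.0130, -3.39 on TPM as deposited). CMYA5, a large costamere protein, stood at 0.00466, 0.0808 and 0.0490 scaled TPM at E33 and 49.5, 48.0 and 65.4 at E95 (log2 change 5.71, 5.06 on TPM as deposited), near 0 in every E33 library.

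Of 17 genes for excitation-contraction coupling and the calcium store, 16 rose and the other 1 was not called (median log2 change 2.21, 1.18 as deposited), while 12 rose and 1 fell on TPM as deposited. Sarcolipin (SLN), a small inhibitor of the calcium pump, stood at 4.90, 3.45 and 5.21 scaled TPM at E33 and 162, 199 and 143 at E95 (log2 change 4.94, SE 0.18, limma adjusted p 3.09e-05, 3.77 on TPM as deposited). JSRP1, a junctional protein of the sarcoplasmic reticulum (chromosome 2, 76418508 to 76422405), stood at 9.59, 8.91 and 10.6 scaled TPM at E33 and 218, 305 and 230.3 at E95 (log2 change 4.54, SE 0.16, limma adjusted p 2.81e-05, 3.32 on TPM as deposited). The muscle sodium channel SCN4A, which carries the action potential, stood at 1.75, 1.22 and 1.6 scaled TPM at E33 and 50.0, 51.0 and 72.3 at E95 (log2 change 4.53, SE 0.17, limma adjusted p 3.54e-05, 3.49 on TPM as deposited). All 3 were low in each E33 library and high in each E95 library. CASQ1, the calcium-binding protein of the store, rose by a log2 change of 4.08, and BIN1 by 2.13.

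Genes of energy metabolism rose relative to the median gene. Of 27 glycolysis and glycogen genes 19 rose and 5 fell (median log2 change 1.19, -0.05 as deposited), while 10 rose and 7 fell on TPM as deposited. The genes that moved in opposite directions include isoforms of the same enzyme. Aldolase A (ALDOA) stood at 8.81, 14 and 18.6 scaled TPM at E33 and 347, 555 and 377 at E95 (log2 change 4.88, SE 0.30, limma adjusted p 0.000129, 3.64 on TPM as deposited), and aldolase C (ALDOC), the isoform known from brain, at 11.7, 10.9 and 12.5 scaled TPM at E33 and 3.16, 1.51 and 0.874 at E95 (log2 change -2.24, SE 0.28, limma adjusted p 0.00158, -3.21 on TPM as deposited). Beta-enolase ENO3, the muscle enolase (chromosome 12, 51954614 to 51959991), stood at 23.5, 17.8 and 20.8 scaled TPM at E33 and 550.2, 711 and 555 at E95 (log2 change 4.8, SE 0.17, limma adjusted p 2.74e-05, 3.55 on TPM as deposited), while ENO1 fell (log2 change -0.88). The same split was seen for glycogen phosphorylase (PYGM 3.41, PYGB -1.17) and phosphoglycerate mutase (PGAM2 2.45, PGAM1 -0.72). These 4 pairs were picked after their values were seen. The insulin-regulated glucose transporter SLC2A4 was listed at 0 in 1 E33 library and reached 1.21 scaled TPM at most there, against 37.3 to 39.0 at E95. PPP1R3A, a glycogen-targeting subunit of protein phosphatase 1, rose (log2 change 4.30).

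Mitochondrial genes of the nuclear and of the mitochondrial genome rose relative to the median gene. Of 33 nuclear genes of oxidative phosphorylation 29 rose and the other 4 were not called (median log2 change 1.26, 0.06 as deposited), while 4 rose and 2 fell on TPM as deposited. Of 13 mitochondrially encoded genes 12 rose and the other 1 was not called (median log2 change 1.89, 0.62 as deposited), with 7 higher as deposited and 6 higher after quantile normalization. SLC25A4, the ADP/ATP carrier of muscle (chromosome 15, 46193498 to 46197989), stood at 17.1, 17.5 and 14.6 scaled TPM at E33 and 321, 454 and 313 at E95 (log2 change 4.37, SE 0.18, limma adjusted p 4.09e-05, 3.13 on TPM as deposited). NDUFA4, a subunit of the respiratory chain, stood at 5.13, 10.9 and 4.75 scaled TPM at E33 and 39.8, 50.6 and 40.9 at E95 (log2 change 2.57, SE 0.29, limma adjusted p 0.00109, 1.38 on TPM as deposited), and the mitochondrial ND1 at 970.0, 658 and 621 scaled TPM at E33 and 4410.1, 5486 and 4749.9 at E95 (log2 change 2.73, SE 0.22, limma adjusted p 0.000312, 1.45 on TPM as deposited). In each case the lowest E95 library lay above the highest E33 library. Of 18 citrate cycle and pyruvate dehydrogenase genes 15 rose and the other 3 were not called (median log2 change 0.89, -0.30 as deposited), while 3 fell on TPM as deposited. IDH3B and MDH2, a subunit of isocitrate dehydrogenase and the mitochondrial malate dehydrogenase, rose by 1.70 and 1.42, which was 0.47 and 0.17 as deposited.

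Fatty acid uptake and oxidation counted 21 of 24 genes higher (median log2 change 1.3, 0.12 as deposited), while 7 rose and 2 fell on TPM as deposited. CPT1B, the muscle carnitine palmitoyltransferase that admits fatty acids to mitochondria, stood at 5.94, 4.54 and 5.73 scaled TPM at E33 and 51.4, 73.5 and 79.8 at E95 (log2 change 3.42, SE 0.19, limma adjusted p 9.81e-05, 2.24 on TPM as deposited). PPARGC1A, a coactivator known for driving mitochondrial genes, stood at 0.482, 0.701 and 0.689 scaled TPM at E33 and 12.6, 11.8 and 19.4 at E95 (log2 change 3.23, SE 0.19, limma adjusted p 0.000117, 2.36 on TPM as deposited). No library of one stage reached the range of the other for either gene. Lipoprotein lipase (LPL) rose too (log2 change 3.02), and FABP4, a fatty acid carrier of adipocytes and endothelium, was listed at 0 in all 3 E33 libraries and at 19.9 to 46.6 scaled TPM at E95. LPL and FABP4 also stand among the adipocyte markers described further on, so this list is not one of myofibre genes alone. Of 12 genes of the phosphocreatine and purine nucleotide cycles 8 rose and 1 fell (median log2 change 1.72, 0.49 as deposited), while 5 rose and 3 fell on TPM as deposited. They include adenosine monophosphate deaminase AMPD1 (3.49) and adenylate kinase AK1 (3.11).

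Genes of lipid synthesis moved against those of lipid oxidation. Of 20 genes for fatty acid and cholesterol synthesis 18 fell and the other 2 were not called (median log2 change -1.48, -2.50 as deposited), and 20 fell on TPM as deposited. Lanosterol synthase (LSS), which closes the sterol rings, stood at 38.6, 32.5 and 42.8 scaled TPM at E33 and 4.06, 3.89 and 4.2 at E95 (log2 change -2.94, SE 0.12, limma adjusted p 4.17e-05, -4.05 on TPM as deposited). Stearoyl-CoA desaturase (SCD, chromosome 14, 111461560 to 111478033) stood at 25, 24.3 and 23.2 scaled TPM at E33 and 4.10, 2.49 and 2.90 at E95 (log2 change -2.61, SE 0.15, limma adjusted p 0.000112, -3.68 on TPM as deposited). For LSS and SCD alike, all E95 libraries lay below all E33 libraries.

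**Figure D2:**
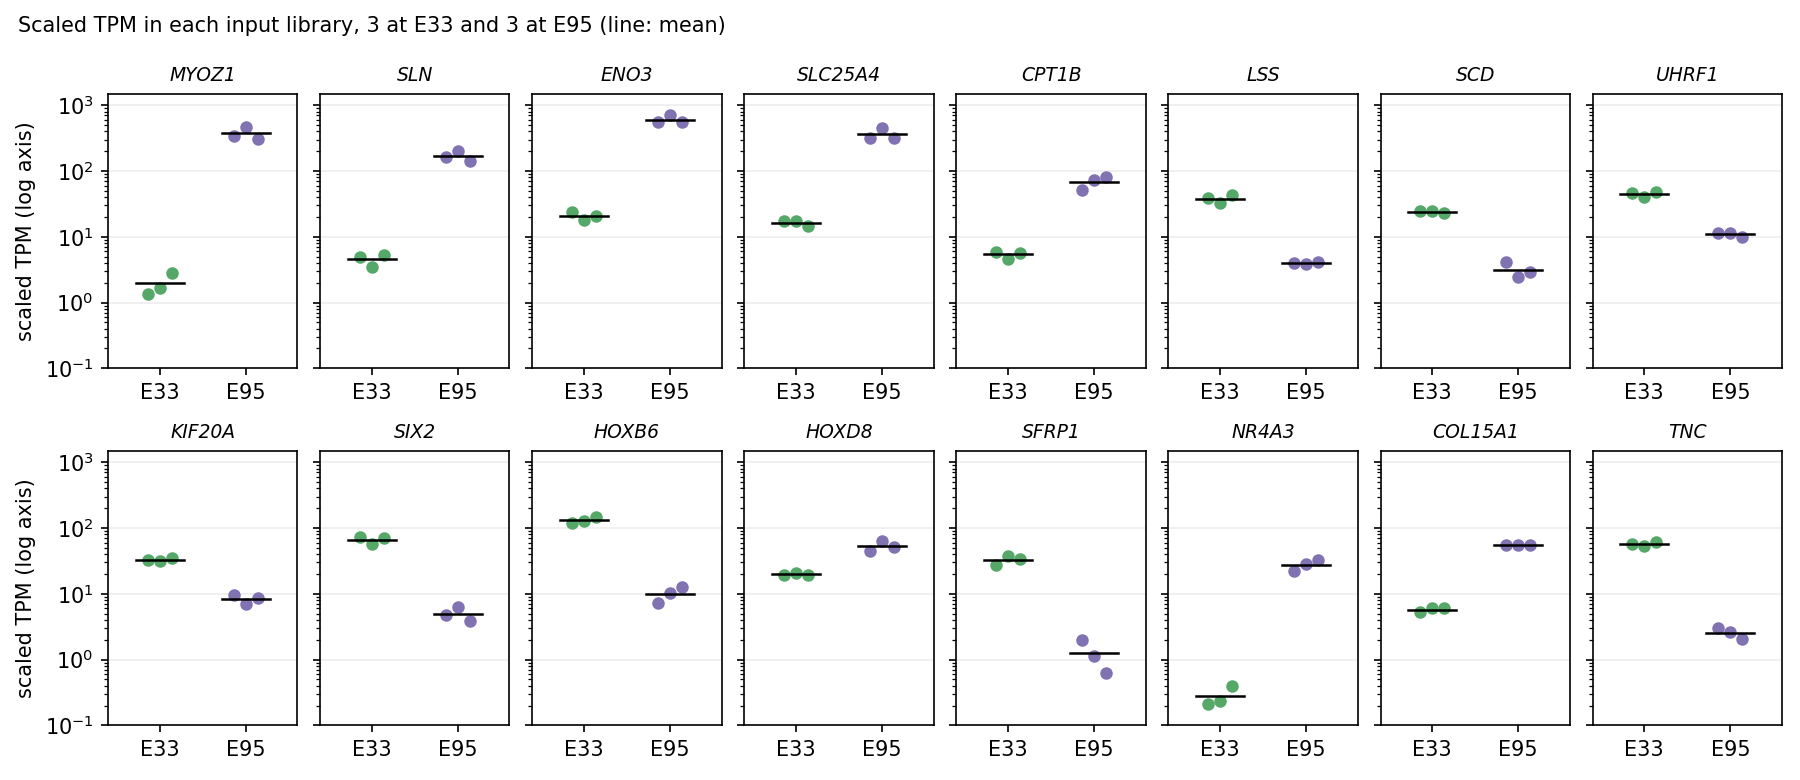
Scaled TPM (log axis) of 16 genes in the 3 E33 and 3 E95 input libraries, 1 point per library and a line at the mean of each stage. MYOZ1, SLN, ENO3, SLC25A4, CPT1B, HOXD8, NR4A3 and COL15A1 are higher in all 3 E95 libraries, and LSS, SCD, UHRF1, KIF20A, SIX2, HOXB6, SFRP1 and TNC are lower.

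Most proliferation genes fell. Of 27 DNA replication genes 21 fell and the other 6 were not called (median log2 change -0.76, -1.90 as deposited), and of 31 mitosis genes 27 fell and the other 4 were not called (median log2 change -1.0, -1.98 as deposited). As deposited, 27 and 30 fell. UHRF1, which copies DNA methylation onto new strands (chromosome 2, 73898061 to 73937727), stood at 46.1, 40.1 and 47.9 scaled TPM at E33 and 11.5, 11.4 and 9.76 at E95 (log2 change -1.94, SE 0.12, limma adjusted p 0.000123, -3.14 on TPM as deposited). POLE, a replicative polymerase, fell by 1.66 on the log2 scale, and the helicase genes MCM3 and MCM10 by 1.39 and 1.37. KIF20A, a kinesin of cytokinesis, stood at 32.5, 31.2 and 35.5 scaled TPM at E33 and 9.51, 7.10 and 8.72 at E95 (log2 change -1.86, SE 0.13, limma adjusted p 0.000177, -3.03 on TPM as deposited). Each of these genes kept a measurable level at E95. The kinetochore protein CENPF (-1.72), the kinesin KIF2C (-1.68) and cyclin B1 (CCNB1, -1.58) fell with them.

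Of 17 cell cycle inhibitors and genes of cell cycle exit 9 rose and 2 fell (median log2 change 0.57, -0.52 as deposited), while 1 rose and 6 fell on TPM as deposited. The fallers numbered 1 without E33 replicate 2. GADD45B, a stress-induced growth arrest gene, stood at 4.78, 4.06 and 9.57 scaled TPM at E33 and 62.2, 45.8 and 45.9 at E95 (log2 change 2.94, SE 0.30, limma adjusted p 0.000686, 1.76 on TPM as deposited), and TOB1, an antiproliferative partner of the deadenylase complex, at 15.2, 22.0 and 18.5 scaled TPM at E33 and 78.7, 84.7 and 73.8 at E95 (log2 change 2.04, SE 0.15, limma adjusted p 0.000242, 0.80 on TPM as deposited). CDKN1B, the cyclin-dependent kinase inhibitor known as Kip1, rose by 1.25 after scaling and stood at 0.00 as deposited. E2F5, a repressor of cell cycle genes, fell by 0.82 on the log2 scale.

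Genes for making and handling protein changed in both directions, but not all of these lists stood out from all genes, of which 42.7% were called. The share called after scaling was below 42.7% for mitochondrial ribosomal, proteasome and ribosome biogenesis genes. For cytosolic ribosomal protein genes and translation factors it was close to 42.7%, but most of their calls were rises. These were 16 of 36 and 8 of 22, against 21.0% higher among all genes. Chaperones and muscle ubiquitin ligase and autophagy genes lay above it. Of 36 cytosolic ribosomal protein genes 16 rose and the other 20 were not called (median log2 change 0.56, -0.71 as deposited). On TPM as deposited 18 fell, against 64.4% of all genes. The count also hangs on single libraries, with 2 higher without E95 replicate 1, 3 without E33 replicate 2 or 3, 4 without E33 replicate 1, 7 when E95 replicate 2 was left out and 26 without E95 replicate 3. RPL23, a protein of the large subunit, rose (log2 change 1.25, -0.02 as deposited). Of 25 mitochondrial ribosomal genes 4 rose and 1 fell, and of 27 proteasome genes 2 rose and 1 fell, with the proteasome risers at 0 without E33 replicate 1 or 3 or E95 replicate 1, 1 without E95 replicate 2 and rising to 4 when leaving out E95 replicate 3. As deposited 16 and 24 of them fell. Ribosome biogenesis counted 1 gene higher and 6 lower of 23 (median log2 change -0.25, -1.38 as deposited), and 3 lower without E33 replicate 3 or E95 replicate 1. NOLC1 and LYAR, a pair of nucleolar proteins, fell by 0.88 and 0.73 on the log2 scale.

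Of 22 translation factors 8 rose and 2 fell (median log2 change 0.36, -0.90 as deposited), while 2 rose and 14 fell on TPM as deposited. The fallers numbered 0 without any E33 library or E95 replicate 1 and 1 without E95 replicate 3. The member with the largest change was EEF1A2, the elongation factor isoform of adult muscle and neurons, with 1.76, 3.03 and 3.29 scaled TPM at E33 and 305, 609 and 438 at E95 (log2 change 6.91, SE 0.29, limma adjusted p 4.28e-05, 5.77 on TPM as deposited). EIF4EBP1, which holds back cap-dependent initiation, rose (log2 change 2.96). Of 25 chaperones 10 rose and 3 fell (median log2 change 0.22, -1.01 as deposited). On TPM as deposited 3 rose and 16 fell, a share of fallers close to the 64.4% of all genes. Among the risers were small heat shock proteins of muscle, with HSPB6 at 26.2, 24.0 and 30.1 scaled TPM at E33 and 454, 589 and 358 at E95 (log2 change 4.05, SE 0.21, limma adjusted p 7.59e-05, 2.80 on TPM as deposited), HSPB8 changing by 2.91 and CRYAB by 2.47. HSPB3, of the same family, fell (log2 change -0.88). Of 23 muscle ubiquitin ligase and autophagy genes 14 rose and the other 9 were not called (median log2 change 1.18, 0.00 as deposited), while 8 rose and 7 fell on TPM as deposited. ASB2 and ASB5, adaptors of cullin ligases in muscle, rose by 2.96 and 3.24, and CAPN3, the muscle calpain, by 2.53.

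Most regulators of position fell. Of 27 tested HOX genes 1 rose and 21 fell (median log2 change -1.47, -2.58 as deposited), and 26 fell as deposited. HOXB6 (chromosome 12, 24849741 to 24853494) stood at 118, 128 and 146 scaled TPM at E33 and 7.28, 10.3 and 12.7 at E95 (log2 change -3.60, SE 0.20, limma adjusted p 9.81e-05, -4.79 on TPM as deposited), HOXB5 changed by -3.40 and HOXC5 by -3.25. HOXD8 alone rose, with 19.4, 21.1 and 19.1 scaled TPM at E33 and 44.4, 63.0 and 52.2 at E95 (log2 change 1.36, SE 0.15, limma adjusted p 0.000903, 0.13 on TPM as deposited), so relative to the median gene it moved against the other called members, and as deposited its change was near 0. The early homeobox regulator SIX2, of mesenchyme and tendon, stood at 73.1, 57.3 and 69.7 scaled TPM at E33 and 4.8, 6.32 and 3.85 at E95 (log2 change -3.51, SE 0.18, limma adjusted p 7.82e-05, -4.66 on TPM as deposited). FOXD1 and ZIC2, forkhead and zinc finger factors of early mesenchyme and neural tissue, stood at 135, 79.4 and 90.9 scaled TPM at E33 and 1.61, 5.12 and 5.19 at E95 and, for ZIC2, at 34.4, 25.5 and 34.6 scaled TPM at E33 and 0.377, 1.19 and 0.303 at E95. Both fell (log2 changes -4.43 and -4.35).

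Of 30 myogenic transcription factors 12 rose and 8 fell (median log2 change 0.41, -0.72 as deposited), 5 fell without E33 replicate 3, and 1 rose and 14 fell on TPM as deposited. MYF5, the early determination factor, stood at 69.8, 64.6 and 87.2 scaled TPM at E33 and 26.6, 36.2 and 23.5 at E95 (log2 change -1.34, SE 0.20, limma adjusted p 0.00289, -2.58 on TPM as deposited), and MYF6, which is the late one kept by fibres, at 11.7, 6.24 and 18.2 scaled TPM at E33 and 52.3, 70.7 and 45.3 at E95 (log2 change 2.22, SE 0.37, limma adjusted p 0.00455, 1.0 on TPM as deposited). Their directions were opposite, with no overlap of stages in either gene. NFIC, of the nuclear factor I family, rose (log2 change 1.63, 0.41 as deposited). Among 13 genes of the fetal growth window 4 rose and 7 fell (median log2 change -0.56, -1.66 as deposited). The count of risers was 2 without any 1 of the E33 libraries or E95 replicate 1. Paternally expressed DLK1, a membrane protein of fetal muscle and fat, stood at 99.6, 66.7 and 90.9 scaled TPM at E33 and 384, 496 and 399.7 at E95 (log2 change 2.31, SE 0.20, limma adjusted p 0.000363, 1.05 on TPM as deposited), while MEST, another imprinted growth gene, stood at 234, 195 and 205 scaled TPM at E33 and 88.2, 72.4 and 95.9 at E95 (log2 change -1.3, SE 0.15, limma adjusted p 0.00119, -2.56 on TPM as deposited).

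Among signalling pathways, Wnt genes fell most often: 20 of 32 fell and 5 rose (median log2 change -0.77, -1.83 as deposited), while 1 rose and 26 fell on TPM as deposited. Leaving out E33 replicate 1 or 2 left 2 risers, and leaving out E33 replicate 3 or E95 replicate 1 left 3. SFRP1 (chromosome 17, 10436414 to 10489773), which binds Wnt ligands, stood at 27.4, 38.2 and 34.2 scaled TPM at E33 and 1.96, 1.15 and 0.629 at E95 (log2 change -3.96, -4.91 on TPM as deposited). SFRP2, its close relative, stood at 197, 218 and 231 scaled TPM at E33 and 54.2, 43.4 and 38.8 at E95 (log2 change -2.23, SE 0.16, limma adjusted p 0.000188, -3.49 on TPM as deposited), and FRZB, also of this family, at 0.933, 0.469 and 0.680 scaled TPM at E33 and 6.96, 7.68 and 7.09 at E95 (log2 change 2.29, SE 0.13, limma adjusted p 9.81e-05, 1.48 on TPM as deposited). Thus SFRP1 and SFRP2 fell and FRZB rose, each without overlap. DKK2, which blocks the co-receptor, fell (log2 change -1.92).

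Of 11 hedgehog genes 2 rose and 5 fell (median log2 change -0.28, -1.44 as deposited), while 9 fell on TPM as deposited. The risers numbered 1 without E33 replicate 1 or 3 or E95 replicate 1 or 2. The co-receptor BOC stood at 61.1, 53.6 and 60.8 scaled TPM at E33 and 12.2, 10.8 and 13.9 at E95 (log2 change -2.17, SE 0.13, limma adjusted p 0.000107, -3.37 on TPM as deposited), and the transcription factor GLI3 at 24.3, 24.8 and 23.0 scaled TPM at E33 and 4.70, 4.52 and 4.50 at E95 (log2 change -2.17, SE 0.08, limma adjusted p 3.54e-05, -3.28 on TPM as deposited). CDON, the partner co-receptor, fell (log2 change -1.35), and SMO, the signal transducer, rose (1.31, 0.05 as deposited). Of 43 genes of the BMP and TGF-beta family 6 rose and 19 fell (median log2 change -0.26, -1.37 as deposited), with 34 lower as deposited. Without E33 replicate 1 or 3 the lower count was 12, and without E33 replicate 3 the higher count was 3. GREM1, a secreted BMP antagonist, stood at 22.8, 18.7 and 26.6 scaled TPM at E33 and 1.55, 1.45 and 2.22 at E95 (log2 change -3.11, SE 0.17, limma adjusted p 8.42e-05, -4.08 on TPM as deposited). BMP4 stood at 21.3, 15.1 and 22.6 scaled TPM at E33 and 3.44, 5.80 and 4.98 at E95 (log2 change -1.85, SE 0.22, limma adjusted p 0.00117, -2.96 on TPM as deposited), and the BMP target ID2 fell too (log2 change -1.71). GREM1, BMP4 and ID2 thus all lay lower at E95, while TGFB1 rose (1.5, 0.45 as deposited). ID3, the most abundant member not called, changed by -0.11, so the fall of ID2 does not stand for its relatives.

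Of 21 Notch genes 7 rose and 3 fell (median log2 change 0.29, -0.77 as deposited), while 1 rose and 11 fell on TPM as deposited. The share called after scaling, 47.6%, was close to the 42.7% of all genes. The fallers numbered 1 or 2 whichever library was left out, with 1 without E33 replicate 1 or 3 or E95 replicate 2. The risers include JAG2, a ligand, with 14.5, 8.39 and 8.73 scaled TPM at E33 and 42.6, 43.8 and 48.2 at E95 (log2 change 2.03, SE 0.21, limma adjusted p 0.000711, 0.82 on TPM as deposited), and the endothelial pair DLL4 (1.26, 0.14 as deposited) and NOTCH4 (1.63, 0.56). Of 27 genes of FGF and other growth factor receptors 6 rose and 9 fell (median log2 change -0.18, -1.29 as deposited), while 1 rose and 21 fell on TPM as deposited. The share of risers after scaling was close to that of all genes, of which 21.0% rose and 21.7% fell. FGFR2, a receptor of epithelium and bone, stood at 7.03, 6.03 and 6.35 scaled TPM at E33 and 0.581, 0.266 and 0.436 at E95 (log2 change -2.39, -3.12 on TPM as deposited), and VEGFA, the vessel growth factor, at 22.7, 15.5 and 22.7 scaled TPM at E33 and 134, 172 and 143 at E95 (log2 change 2.83, SE 0.19, limma adjusted p 0.000158, 1.59 on TPM as deposited). The receptor fell below 1 scaled TPM in all 3 E95 libraries, and the vessel factor rose in all 3. ERBB3, the neuregulin receptor of Schwann cells and muscle, fell (log2 change -1.91). Of 26 IGF and insulin signalling genes 11 rose and 5 fell (median log2 change 0.30, -0.88 as deposited), while 1 rose and 14 fell on TPM as deposited. Between 2 and 3 fell when any 1 library other than E95 replicate 3 was left out. IGFBP2, a binding protein of fetal tissue, stood at 35.4, 31.4 and 29.5 scaled TPM at E33 and 4.87, 5.86 and 3.02 at E95 (log2 change -2.60, SE 0.21, limma adjusted p 0.000303, -3.73 on TPM as deposited), and IGFBP7, known from vessels, at 3.59, 4.41 and 5.17 scaled TPM at E33 and 28.9, 31.9 and 27.5 at E95 (log2 change 2.51, SE 0.14, limma adjusted p 8.72e-05, 1.35 on TPM as deposited).

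Hormone and nuclear receptors and clock genes rose in 18 of 28 cases and fell in 4 (median log2 change 1.13, 0.01 as deposited), while 8 rose and 9 fell on TPM as deposited. Only 2 fell without E33 replicate 3 or E95 replicate 1. NR4A3, an orphan receptor known as an immediate early gene (chromosome 1, 241569867 to 241611735), stood at 0.209, 0.236 and 0.401 scaled TPM at E33 and 22.6, 28.2 and 32.5 at E95 (log2 change 4.48, 3.70 on TPM as deposited). Its relative NR4A1 stood at 4.45, 3.89 and 6.57 scaled TPM at E33 and 40.5, 55.9 and 69.2 at E95 (log2 change 3.23, SE 0.25, limma adjusted p 0.000255, 2.06 on TPM as deposited), and the clock repressor BHLHE40 at 2.37, 4.29 and 6.23 scaled TPM at E33 and 91.2, 79.9 and 98.7 at E95 (log2 change 4.17, SE 0.28, limma adjusted p 0.000161, 2.99 on TPM as deposited). All 3 were several times higher in each E95 library than in any E33 library. NR1D2, a heme-binding clock receptor, and ZBTB16 rose by 3.14 and 1.97, the mineralocorticoid receptor NR3C2 by 1.22 (0.20 as deposited) and the estrogen-related receptor ESRRB by 1.33 (0.52). FKBP5, a chaperone of steroid receptors, fell (log2 change -0.82).

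The matrix changed in both directions. Of 26 fibrillar collagen and cross-linking genes 9 rose and 11 fell (median log2 change -0.19, -1.37 as deposited), with 5 higher after quantile normalization and 17 lower as deposited. COL2A1, the collagen of cartilage, stood at 92.9, 68.3 and 102 scaled TPM at E33 and 24.9, 19.1 and 21.5 at E95 (log2 change -1.95, SE 0.19, limma adjusted p 0.000554, -3.18 on TPM as deposited), and P4HA3, a collagen prolyl hydroxylase, fell (log2 change -2.27). COL11A2 rose (2.50). Of 23 basement membrane and interface genes 12 rose and 7 fell (median log2 change 0.68, -0.54 as deposited), while 4 rose and 11 fell on TPM as deposited. COL15A1, a collagen of the muscle and vessel basement membrane (chromosome 1, 240718128 to 240829188), stood at 5.24, 6.04 and 6.01 scaled TPM at E33 and 55.8, 56.1 and 56.2 at E95 (log2 change 3.08, SE 0.09, limma adjusted p 2.13e-05, 1.89 on TPM as deposited). LAMB2, the laminin chain of mature fibres and synapses, stood at 97.8, 83.7 and 102 scaled TPM at E33 and 386, 419 and 365 at E95 (log2 change 2.04, SE 0.13, limma adjusted p 0.000147, 0.77 on TPM as deposited). COL6A6 and the laminin receptor ITGA7 rose (2.26 and 2.18), and COL22A1, a collagen of tissue junctions, fell (-1.79).

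Of 32 proteoglycan, elastic fibre and matricellular genes 9 rose and 10 fell (median log2 change 0.09, -1.13 as deposited), while 4 rose and 22 fell on TPM as deposited. Tenascin-C (TNC, chromosome 1, 255533235 to 255630381), a glycoprotein of growing and remodelling tissue, stood at 57.6, 54.0 and 61.6 scaled TPM at E33 and 3.04, 2.64 and 2.05 at E95 (log2 change -4.05, SE 0.13, limma adjusted p 2.31e-05, -5.11 on TPM as deposited). Its relative TNXB, tenascin-X of mature connective tissue, stood at 12.5, 6.01 and 10.9 scaled TPM at E33 and 47.2, 44.0 and 31.6 at E95 (log2 change 1.99, SE 0.28, limma adjusted p 0.00250, 0.79 on TPM as deposited). One fell and the other rose, without overlap of stages. PRELP, a basement membrane anchor, and SPARCL1 rose (2.90 and 2.10, SPARCL1 0.86 as deposited).

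Of 10 neuromuscular junction genes 4 rose and 5 fell (median log2 change -0.23, -1.37 as deposited), while 6 fell on TPM as deposited. The count of risers fell to 1 or 2 without E33 replicate 1 or 3 or E95 replicate 1 or 2. MUSK, the receptor kinase that gathers acetylcholine receptors, stood at 7.14, 7.29 and 5.01 scaled TPM at E33 and 1.58, 1.65 and 2.13 at E95 (log2 change -1.41, SE 0.16, limma adjusted p 0.00108, -2.35 on TPM as deposited). Agrin (AGRN), which activates it, and the adhesion molecule NCAM1 fell (-1.38 and -1.61). Acetylcholinesterase (ACHE) rose by 1.0, which was -0.22 as deposited.

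Of 33 chromatin and DNA methylation genes 3 rose and 16 fell (median log2 change -0.45, -1.55 as deposited), and 26 fell as deposited. The risers numbered 1 without E33 replicate 1. CBX2, a Polycomb subunit, stood at 36.0, 34.9 and 45.1 scaled TPM at E33 and 9.19, 6.31 and 6.42 at E95 (log2 change -2.26, SE 0.18, limma adjusted p 0.000263, -3.43 on TPM as deposited). RNF2, the Polycomb ubiquitin ligase, the remodeller ATPase SMARCA4 and lamin B1 (LMNB1) fell (-1.05, -1.13 and -1.27). TET1 rose by 0.86 (-0.22 as deposited) while TET3 fell. Of 23 splicing regulators 6 rose and 5 fell, shares close to those of all genes (median log2 change -0.15, -1.34 as deposited), and 2 to 3 lower without any 1 library other than E95 replicate 3. RBFOX1 and RBM38, activators of muscle exons, rose (1.49 and 2.02, with 0.42 and 0.85 as deposited). PTBP1, which represses such exons, stood at 83.0, 73.9 and 85.0 scaled TPM at E33 and 42.9, 42.5 and 36.1 at E95 (log2 change -0.98, SE 0.12, limma adjusted p 0.00152, -2.23 on TPM as deposited). Among 21 m6A writers, erasers and readers 3 rose and 4 fell (median log2 change -0.05, -1.17 as deposited), and the risers numbered 1 without E33 replicate 1 or 3 and 2 when any other library was left out. Of this list 33.3% was called, below the 42.7% of all genes. The falls were widest in the IGF2BP readers, which bind m6A-marked messages and are known from fetal tissue. IGF2BP2 stood at 22.8, 24.5 and 22.0 scaled TPM at E33 and 6.21, 7.30 and 9.31 at E95 (log2 change -1.5, SE 0.15, limma adjusted p 0.000634, -2.66 on TPM as deposited), IGF2BP3 changed by -1.25, and IGF2BP1 by -3.92 to below 1 scaled TPM in every E95 library.

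Of 23 interferon, antigen presentation and complement genes 14 rose and 4 fell (median log2 change 0.75, 0.10 as deposited), while 2 rose and 6 fell on TPM as deposited and 2 fell without E33 replicate 3 or E95 replicate 3. C1QA, a complement component of macrophages, stood at 2.45, 3.12 and 4.28 scaled TPM at E33 and 23.9, 16.8 and 7.40 at E95 (log2 change 1.88, SE 0.41, limma adjusted p 0.0122, 0.77 on TPM as deposited), and CFB, of the alternative pathway, at 8.36, 7.85 and 10.2 scaled TPM at E33 and 1.38, 0.579 and 2.40 at E95 (log2 change -2.06, SE 0.28, limma adjusted p 0.00209, -2.94 on TPM as deposited). Of 25 oxidative stress and iron genes 7 rose and 2 fell (median log2 change 0.23, -0.82 as deposited), with 4 higher without E33 replicate 1 and 14 lower as deposited. The share called after scaling was 36%, below the 42.7% of all genes. The fallers numbered 0 without E33 replicate 2 or 3 and 1 without E33 replicate 1 or E95 replicate 2. SOD2, the mitochondrial superoxide dismutase, stood at 4.35, 4.42 and 5.30 scaled TPM at E33 and 20.4, 26.3 and 20.1 at E95 (log2 change 2.02, SE 0.14, limma adjusted p 0.000174, 0.87 on TPM as deposited).

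Markers of the cell types that whole muscle can hold moved with the stages, and their part in the list results was not tested. The summed levels of markers cover every marker found in the data, including those too low to be tested. They hold 13 neuron markers where 8 were tested, 12 of cartilage and bone where 7 were, and 13 of macrophages and leukocytes where 8 were. Of the 6 measured myofibre markers 6 rose, and their summed level was 1352 to 1552 at E33 and 19323 to 29687 at E95 (scaled TPM, range over libraries). Of 6 stem cell and myoblast markers 1 rose and 1 fell, with sums of 335 to 446 at E33 and 356 to 458 at E95, which overlap. Neuron markers fell in 6 of 8 cases, but only 1 of the 8 reached 1 TPM at both stages, so the others entered through the stage where they are high. The sum over the 13 neuron markers found was 124 to 186 at E33 and 5.94 to 8.87 at E95. STMN2, a tubulin-binding protein of growing axons, stood at 8.72, 11.3 and 10.4 scaled TPM at E33 and 0, 0.0407 and 0 at E95 (log2 change -3.45, -4.07 on TPM as deposited), and DCX, of migrating neurons, fell (log2 change -2.30). The summed neuron markers did not overlap between the stages. Cartilage and bone markers fell in 6 of 7 cases, rose in 1, and summed to 127 to 177 at E33 and 34.1 to 41.6 at E95, with 2 at 1 TPM or more at both stages. SOX9 stood at 45.7, 44.8 and 57.1 scaled TPM at E33 and 13.8, 10.9 and 10.8 at E95 (log2 change -1.96, SE 0.15, limma adjusted p 0.000251, -3.17 on TPM as deposited), RUNX2, the bone regulator, was below 1 scaled TPM in all 3 E95 libraries (log2 change -2.28), and the cartilage collagen COL9A1 was too (-2.14).

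Endothelial markers rose in 10 of 11 cases and summed to 48.9 to 57.5 at E33 and 204 to 227 at E95. PECAM1 stood at 2.69, 3.26 and 4.06 scaled TPM at E33 and 15.7, 18.8 and 15.7 at E95 (log2 change 2.04, SE 0.15, limma adjusted p 0.000203, 0.93 on TPM as deposited), and EMCN and ESAM rose as well (1.98 and 2.26). Adipocyte markers rose in 5 of 7 cases, 3 without any 1 E33 library or E95 replicate 1, and summed to 12.9 to 34.1 at E33 and 82.4 to 212 at E95. Of these 7 markers 3 reached 1 TPM at both stages. PLIN4, a lipid droplet coat protein, stood at 0.691, 0.0979 and 0.284 scaled TPM at E33 and 13.7, 7.48 and 24.7 at E95 (log2 change 3.47, 2.77 on TPM as deposited). Macrophage and leukocyte markers rose in 5 of 8 cases (47.5 to 62.0 at E33 and 81.0 to 138 at E95 in sum), pericyte and smooth muscle markers rose in 6 and fell in 2 of 11 (264 to 310.1 at E33 and 255 to 329 at E95), and fibroblast and fibro-adipogenic markers rose in 6 and fell in 3 of 11 (2532 to 3328 at E33 and 5210.1 to 8057 at E95). The pericyte marker RGS5 rose by 2.94 and the progenitor marker CD34 by 1.89. Schwann cell markers rose in 3 and fell in 2 of 6 (73.3 to 80.3 at E33 and 87 to 151 at E95), tendon markers rose in 3 and fell in 3 of 7 (122 to 157 at E33 and 181 to 230.4 at E95), erythroid markers rose in 1 and fell in 2 of 6 (243 to 464 at E33 and 476 to 876 at E95), and epithelial markers rose in 1 and fell in 2 of 5 (13.8 to 21.3 at E33 and 6.99 to 19.4 at E95). Of the organ markers, which include those of liver and kidney, 2 reached the minimum level.

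**Figure D3:**
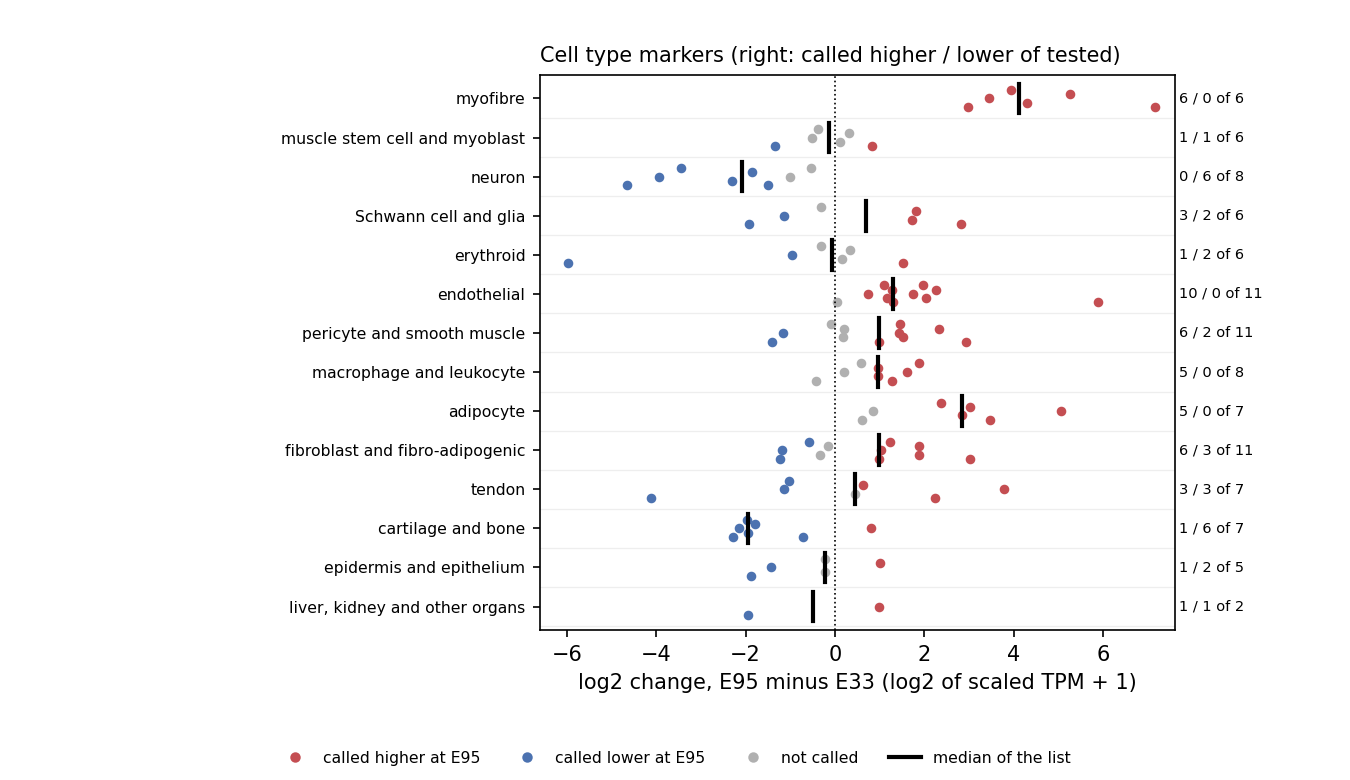
Log2 change from E33 to E95 of the tested markers of 14 cell types, 1 point per gene, red where called higher at E95, blue where called lower and grey where not called, with a black bar at the median of each list. Myofibre (6 of 6) and endothelial (10 of 11) markers lie to the right of 0, and neuron (6 of 8) and cartilage and bone (6 of 7) markers to the left.

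The m6A peak lists held 8685 peaks in 4767 genes at E33 and 8109 peaks in 4598 genes at E95, each list being a single call with no replicate. A peak at both stages was found in 3692 genes, 77.45% of the E33 genes and 80.30% of the E95 genes. By exon block on the same strand, 66.7% of the E33 peaks overlapped an E95 peak by at least 1 base (Wilson 95% interval 65.7% to 67.6%), and 73.5% of the E95 peaks overlapped an E33 peak (72.5% to 74.4%), both intervals covering counting error only. Among the genes tested for expression, 3630 had a peak at both stages, 1024 at E33 only, 855 at E95 only and 8019 at neither. Of the 3630 genes, 3531 shared an overlapping peak, 99 had peaks at both stages that did not overlap, 799 had more peaks at E33 and 656 had more at E95.

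Genes with a peak at one stage only were, relative to the median gene, more often called higher at that stage than at the other. In the E33-only class of 1024 genes, 519 (50.7%) were lower at E95 and 43 higher, against 21.7% and 21.0% of all genes. In the E95-only class of 855 genes, 461 (53.9%) were higher and 38 lower. On TPM as deposited, 4 of the first class were higher and 939 lower, and 145 of the second were higher and 298 lower, so there most calls of both classes were lower. The median log2 changes were -0.49 (quartiles -1.09 to -0.10) for the first class and 0.56 (0.08 to 1.35) for the second, with -0.02 for genes with a peak at both stages, 0.00 for neither and -0.01 for all. Still, 462 genes of the E33-only class (45.1%) and 356 of the E95-only class (41.6%) were not called. As deposited, the class medians lay -0.49 and 0.54 from that of all genes.

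Level itself moved with these classes. The median scaled TPM of E33-only genes was 8.39 at E33 and 5.25 at E95, and that of E95-only genes 4.70 and 8.81, while genes with a peak at both stages stood at 11 and 11.2 and those with neither at 3.83 and 3.95. A peak is called against the input libraries that also give these levels, so a class and a change of level share their source, and the part of detection in the peak classes was not tested. With at least 5 TPM at both stages, 30 of 377 E33-only genes were higher and 126 lower, and 239 of 402 E95-only genes were higher and 15 lower, against 29.9% higher and 15.3% lower among all 5378 genes at that level. Taking only peaks above the median fold of their own list brought the class medians to -0.23 and 0.24 from that of all genes.

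**Figure D4:**
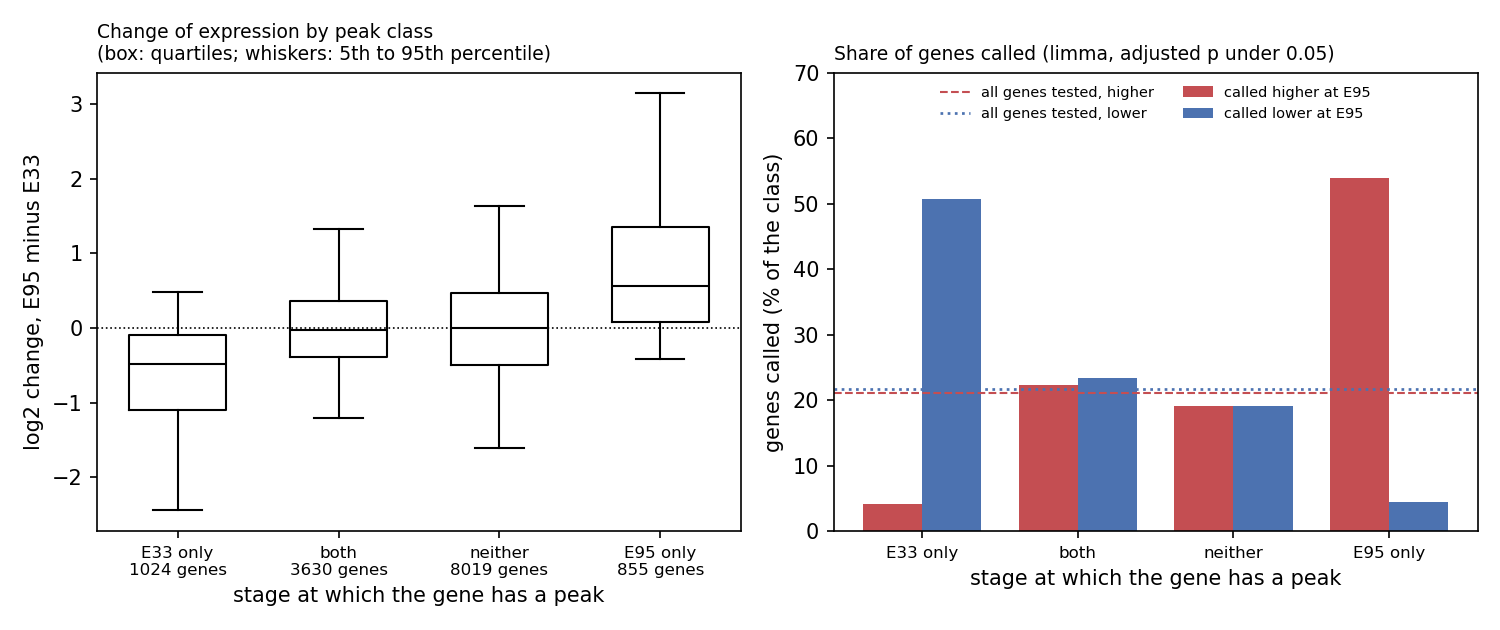
Left, log2 change from E33 to E95 of genes with a peak at E33 only, at both stages, at neither and at E95 only (box, quartiles and median, whiskers, 5th to 95th percentile). Right, the share of each class called higher (red) or lower (blue) in percent, with dashed and dotted lines at the shares of all genes tested, where 50.7% of the E33-only class is lower and 53.9% of the E95-only class is higher.

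Position along the transcript differed between peaks of genes with a peak at one stage and peaks of genes with both. Of the peaks that could be placed in a RefSeq coding transcript, 25.4% of those of E33-only genes (Wilson 95% interval 23.0% to 27.9%) and 31.2% of those of E95-only genes (28.4% to 34.1%) had their midpoint within 200 bases of the stop codon. In genes with a peak at both stages the share was 19.4% in the E33 list (18.4% to 20.3%) and 19.9% in the E95 list (18.9% to 20.9%). Among these, peaks not overlapping the other list had the lowest shares, 13.8% (E33 list) and 16.1% (E95 list). Overlapping peaks had 20.8% and 20.5%. A higher share near the stop codon was thus not seen for stage-specific peaks of genes with both. Coding sequence held 55.2% and 49.9% in the single-stage classes and 67.2% and 66.1% in the shared class, and the 3′ UTR 13.6% and 13.2% against 9.86% and 10.5%. Genes with a peak at both stages carried 1.99 peaks per gene at E33 and 1.90 at E95, against 1.3 and 1.26 in the single-stage classes, so a gene with several peaks counts several times.

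The letters GGACT were searched on the transcript strand in the central 150 bases of peaks at least 150 bases wide. These were 720 of 1329 peaks of E33-only genes and 518 of 1079 of E95-only genes. For genes with both they were 5684 of 7213 (E33 list) and 5252 of 6884 (E95 list), so the shares describe the wider peaks. GGACT was found in 24.3% of the windows of E33-only genes, 25.3% of E95-only genes, and 22.1% (E33 list) and 22.0% (E95 list) of genes with both. The share was 12.3% of 129433 tiles of the same length outside peaks in 5111 of the same transcripts. The reversed letters TCAGG were found in 16.7%, 17.0%, 16.0% and 16.4%, and in 16.3% of the tiles. For GGAC, which GGACT contains, the shares were 66.8%, 63.7%, 63.5% and 62.7% against 41.7%, and for its reverse CAGG 69.6%, 66.2%, 65.5% and 64.4% against 56.4%. The sequences of SOX9 to ERBB2 given earlier are single examples of GGAC inside peaks. Some of those peaks, TET3, BIN1 and FOXD3 among them, were too narrow for these windows. The 4 shares of GGACT have overlapping Wilson intervals.

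Over all genes tested, 7.57% had a peak at E33 only, 6.32% at E95 only, 26.8% at both and 59.3% at neither, and the lists are set against these shares. Of 20 lipid synthesis genes 10 had a peak at E33 only, of which 9 fell, 0 at E95 only and 3 at both. The 7 with no peak all fell as well, and SCD was one of those with an E33 peak. HOX genes counted 7 with a peak at E33 only (6 fell), 0 at E95 only and 12 at both. BMP and TGF-beta genes counted 10 at E33 only (7 fell, GREM1, BMP4 and ID2 included) and 2 at E95 only, and Wnt genes 8 (6 fell, SFRP1 included) and 1, FRZB. Hormone and clock genes counted 6 at E95 only, all of them higher (NR4A1, NR4A3, NR1D2, NR3C2, ESRRB and ZBTB16), and 1 at E33 only, FKBP5, which was lower. Fatty acid oxidation counted 5 at E95 only, all higher, and 0 at E33 only, while 15 of the 18 with no peak were higher too. Of the 4 cytosolic ribosomal protein genes with a peak at E33 only, 3 were higher at E95. Of 33 chromatin genes 24 had a peak at both stages, of which 12 fell and 2 rose, against 23.4% and 22.3% of all genes with a peak at both.

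Single genes show that class and level need not move together. ACTA1 had its only peak, a weak one near the stop codon with a deposited fold enrichment of 1.43, at E33, the stage at which it was lower. DDIT4L, an inhibitor of the mTOR pathway, had a peak of 13.2 in coding sequence at E33 only and stood at 3.96, 5.05 and 5.06 scaled TPM at E33 and 84.4, 81.7 and 79.6 at E95 (log2 change 3.87, SE 0.12, limma adjusted p 2.13e-05, 2.69 on TPM as deposited). PTN, the growth factor pleiotrophin, and TGFBI, a matrix adhesion protein, had peaks of 2.32 and 1.64 at E95 only and were lower there (log2 changes -3.44 and -0.98). More often both moved one way. SSTR1, a somatostatin receptor, had a peak of 17.7 near the stop codon at E33 only and was listed at 0 in 2 of the E95 libraries, FOXD1 had one of 4.08 in coding sequence, and MYOZ1 and CA3, a muscle carbonic anhydrase, had peaks of 3.33 and 2.01 at E95 only. CMYA5 had 18 peaks at E95, with fold enrichments from 1.49 to 7.21. Most were spread along its long coding sequence, and the others lay near the stop codon or outside a RefSeq coding exon. FBXO5, an inhibitor of the anaphase-promoting complex, had the highest fold of the E33-only class (23.0, in coding sequence) at a level that was not called (-0.11, limma adjusted p 0.640). ADGRG1, an adhesion G protein-coupled receptor, had that of the E95-only class (50.8, 3′ UTR), with a log2 change of 0.82 and 0.16 as deposited, and its call was lost without any 1 of the E95 libraries.

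The stages between show when the lists left their E33 level. These values share the E33 libraries with the comparison of E95 and E33, so they are given side by side and not as further support, and 2 libraries of those stages, E40 replicate 2 and E50 replicate 3, stand apart by the share of 1 transcript in their TPM. The median level of Z-disc genes relative to E33 was 0.87, 1.32, 1.63, 2.03 and 2.20 at E40, E50, E60, E70 and E95 (log2, scaled over all 18 libraries). HOX genes stood at -1.29, -1.53, -1.22, -1.80 and -1.44, so their decline lay between E33 and E40. Nuclear oxidative phosphorylation stood at 0.07, 0.25, 0.20, 0.42 and 1.26, and lipid synthesis at -0.43, -0.42, -0.55, -0.53 and -1.47, with the widest step in both between E70 and E95. Mitosis genes stood at 0.06, -0.08, -0.33, -0.53 and -1.0. Without the 2 libraries that stand apart, Z-disc genes were at 0.97 and 1.22 at E40 and E50, HOX genes at -1.39 and -1.38, and lipid synthesis at -0.48 and -0.51. Among E33-only genes, 37.7% had none in any of the 4 lists between, and among E95-only genes 33.7%, while 53.8% of the latter already had one at E70. Of the genes with a peak at both ends 2.15% had none between.

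**Figure D5:**
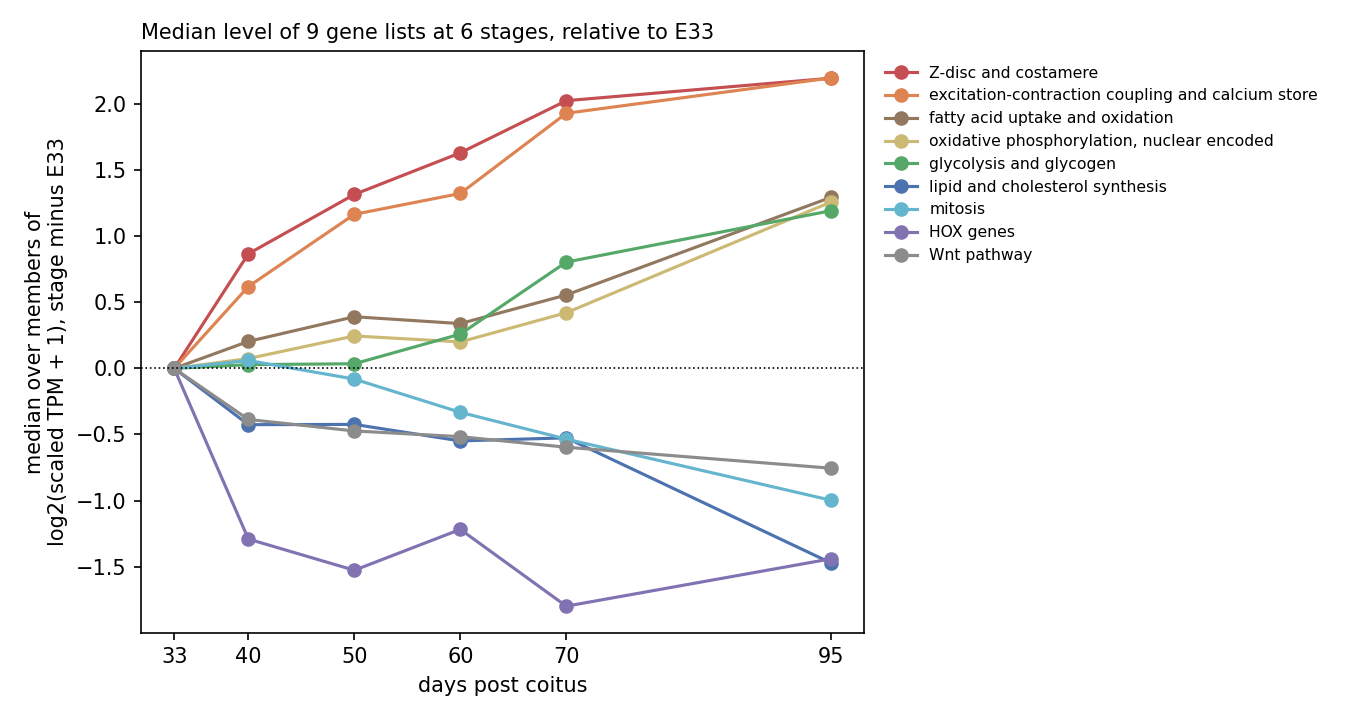
Median over the tested members of 9 gene lists of log2(scaled TPM + 1) at each stage minus E33, against days post coitus. HOX genes are at their low level from E40 on, Z-disc and calcium store genes rise over all stages, and lipid synthesis and nuclear-encoded oxidative phosphorylation take their widest step between E70 and E95.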

How the data were processed

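The expression files held TPM per gene, deposited by the authors for each input library, and were read with no change. The peak lists held, per the file headers, a position, a p-value and a fold enrichment for each peak, as the authors deposited them, 1 list per stage. They were used only to place peaks and to describe or filter peaks within a list. Trimmomatic, HISAT2 and the build Sscrofa11.1 are named in the submitters' processing notes. The quantifier, the peak caller, its threshold and any pooling of replicates are not given in the sources used here. TPM adds up to a fixed total in every library, so it keeps no depth, and the depth behind each value is unknown. A gene that takes a large share lowers all others.

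Libraries were scaled by median ratio over the 14661 genes above 0 in all 6 libraries (factors 0.545 to 1.91). Genes whose mean reached 1 TPM were tested on log2(scaled TPM + 1) with limma 3.58.1 in R 4.3.3 (lmFit, eBayes with a trend, 4 residual degrees of freedom), two-sided, with Benjamini-Hochberg adjustment over all 13528 genes, and were called at an adjusted p under 0.05. Fold changes on this scale understate the change of low genes. "As deposited" in the report means the same fit on unscaled TPM. The fit was tested on simulated data. Python 3.11.15 with numpy 2.4.6, pandas 2.3.3, scipy 1.17.1, pysam 0.24.0 and matplotlib 3.10.9 handled the rest. Peak blocks were read as exon blocks from their listed sizes and starts, and 87.9% of the E33 and 87.8% of the E95 junctions between blocks lay at RefSeq introns of the same build.

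The genes and lists were chosen with earlier results of these data known. Named genes are the 8 with the largest change in each direction, up to 4 called members of each list with the largest change together with the member most opposed and the most abundant uncalled one, and 3 genes per direction and the gene with the highest fold of each peak class. Some genes that this rule names are not reported here. Sequences come from the peaks with the highest folds among list members. The isoform pairs of glycolysis and glycogen breakdown, NR3C2 and ESRRB were named after their values were seen. Groups of samples follow the labels. Alternatives were another scaling, pseudocount, low-value filter, variance model, set of libraries, replicate block, peak threshold and overlap, and each library left out in turn.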

Additional observations from a re-analysis of the deposited data

How the results depend on the processing

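The scaling decides the balance of directions. Against 5779 calls (2843 higher, 2936 lower), TPM as deposited gave 9241 (530 higher, 8711 lower), and rescaling that left out the 2 most abundant genes gave 1145 and 6713. A mean of at least 5 TPM gave 3837 (1889 lower), but among 8131 genes tested, where the main fit had 13528. At least 1 TPM at each stage gave 2617 higher and 2030 lower of 11313 genes tested. The median relative to all genes changed sign under at least 1 alternative in 6 of 54 lists (proteasome, proteoglycans, m6A, and erythroid, tendon and epithelial markers), 3 of them as deposited (proteasome, proteoglycans and erythroid). Leaving out 1 library gave 4379 to 5357 calls. With the replicate block 2337 genes were higher and 2243 lower. Same-numbered libraries did not deviate together (correlations 0.03, -0.01 and 0.02 over genes). Deviations from the mean of 3 libraries are tied to each other, so this cannot decide whether same-numbered samples share more than a number. Of 154 named genes 20 lost their call on TPM as deposited, 3 (ACHE, ADGRG1 and TET1) without the 2 most abundant genes, and 1, ADGRG1, with a pseudocount of 0.1, with the block and without any single E95 library. ERBB2 was not called after scaling. As deposited it stood at -0.090 relative to all genes. Its limma adjusted p there, 0.00799, belongs to the unscaled change and does not test that difference.

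The median changes of genes with a peak at E33 only, E95 only and both, relative to all genes, were -0.47, 0.57 and -0.01. They became -0.23, 0.24 and -0.038 with peaks above the median fold of their list, -0.42 and 0.31 (single-stage classes) with peaks above a fold of 3, and -0.41, 0.47 and -0.080 with at least 1 TPM at each stage. With at least 5 TPM at each stage they were -0.41 for E33 only and -0.094 for both, and the class with both stood at -0.11 as deposited and -0.072 after quantile normalization. Leaving out 1 library gave -0.47 to -0.45, 0.54 to 0.59 and -0.028 to -0.0034. Peaks shared with the other list fell to 65.7% (E33) and 72.3% (E95) when 50% of the shorter peak had to be covered, and to 57.0% and 62.2% above the median fold. TPM carries no depth, so no counting error can be given for levels, and 1 peak list per stage leaves peaks with no replicate.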

Other observations

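Gene families named by a shared symbol stem, some of whose members also stand in the lists of the report, were set against all genes, of which 21.0% were higher and 21.7% lower. Of 222 zinc finger genes (ZNF) 29 rose and 47 fell, and of 205 solute carriers (SLC) 42 rose and 46 fell. Protein phosphatase subunits (PPP) rose in 24 of 57 cases and fell in 4, with a median log2 change of 0.31 after scaling and -0.84 as deposited. Subunits of ATPases and ATP synthase (ATP) rose in 24 of 54 cases and fell in 6. RING finger genes (RNF) rose in 15 of 60 cases and fell in 5, and WD repeat genes (WDR) rose in 3 of 46 and fell in 9.

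Some genes had a deposited peak at a stage where the input libraries list almost no transcript. Of the 4582 genes under 0.01 TPM in all 3 E33 libraries 37 had a peak at E33, and of the 5286 such genes at E95 30 had a peak at E95. Among them 29 genes were under that level at E33 and at 1 TPM or more in all 3 E95 libraries, of which 3 had an E33 peak. NHERF2, a scaffold of membrane transporters, is one, listed at 2.8e-05, 3.1e-05 and 3e-05 TPM at E33 and at 27.5, 30.7 and 24.0 TPM at E95, as deposited. In the opposite direction 120 genes were under 0.01 TPM at E95 and at 1 TPM or more in all 3 E33 libraries, and 2 of those had an E95 peak. These genes were picked after their values were seen.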
